A study of Mus musculus with 8 samples.

Results

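The genes described here encode 4 families of proteins that remove introns from pre-mRNA or coat it. They are the protein-coding genes whose mouse symbols are Srsf or Snrp followed by their member names, Sf3a or Sf3b followed by a digit, or Hnrnp followed by a letter. Among the 43629 genes counted, 52 met this rule: 11 Srsf, 12 Snrp, 9 Sf3 and 20 Hnrnp genes. The rule uses names only, although it was set with earlier results of these data known, and 3 further symbols that matched were left out because they are annotated as pseudogenes. RNA was sequenced from the lower first molars of 4 Mutant embryos, K14:cre; Jagged1 fl/fl, and of 4 Control littermates, all at embryonic day E18.5. The left and the right molar went into 1 pool per embryo, so each library is 1 embryo. The K14 promoter drives Cre in epithelium, so the dental mesenchyme in the same molar keeps an intact Jagged1, a ligand of Notch receptors. The labels give the Control embryos as Jagged1 fl/fl, the same floxed alleles with no Cre named, while the methods of the study call them WT. Neither the sex of the embryos nor their litters were labelled.

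Splicing is carried out by the spliceosome, which assembles on each intron from small nuclear ribonucleoproteins (snRNPs). Most snRNPs carry a ring of Sm proteins around their RNA, and these are among the products of the Snrp genes. The SF3A and SF3B complexes belong to the U2 snRNP and hold it on the branch site. SR proteins, the products of the Srsf genes, bind exons and mostly favour their inclusion, while heterogeneous nuclear ribonucleoproteins (hnRNPs) cover the rest of the transcript and often favour skipping. Several of both kinds also act in mRNA export, stability and translation. Many SR and hnRNP genes limit their own level through alternative exons that send the transcript to nonsense-mediated decay.

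Total counts on genes ran from 17327224 to 28613574 in Control and from 24692128 to 29792467 in Mutant embryos, and 3 counts corresponded to at most 0.166 CPM, reads scaled to the TMM-corrected library size. Jag1 was lower in the Mutant embryos, with a log2 fold change of -1.19 ± 0.14 (SE, edgeR adjusted p = 0.00517), with 95.2 to 104 CPM in Control and 34.0 to 57.1 CPM in Mutant embryos. The TMM factor was 0.843 in the mutant K14J26 and 0.969 in K14J29, against 1.02 to 1.04 in the other 6 libraries. Xist RNA was abundant in 2 mutants, K14J28 with 1930 CPM and K14J29 with 1468 CPM, and the other 6 embryos had 1.09 CPM or less. The summed CPM of 10 skeletal muscle markers was 443 in the Control J6 and 230 in J7, against 7.31 to 22.6 in the other 6 embryos, and 1 of the 10, Ckm, was called lower in Mutant embryos.

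Many transcripts of these families were less abundant in the Mutant molars. Of the 51 genes that passed the filter on low counts, 20 fell at an adjusted p under 0.05 and none rose, where 6.61% of all 17129 genes tested fell and 9.52% rose. One gene, Snrpn, had a positive difference with an unadjusted p under 0.05, and DESeq2 also called none higher. The log2 fold change of Mutant over Control was negative for 46 of the 51 and positive for 5. Its median was -0.26, within a range from -0.56 to 0.41, while the median of all genes tested was 0.0058. Most of the differences were small: by the criteria of the study, an unadjusted p of at most 0.05 with a fold change of at least 0.5, read here as an absolute log2 value, 2 genes were lower, Hnrnpa0 and Hnrnpd, and none was higher (5.85% and 8.33% of all genes). Since molars were sequenced whole, fewer cells that carry much of a transcript and less of it per cell cannot be told apart.

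In 23 of the 51 genes every Mutant embryo lay below every Control embryo, and in none did every Mutant embryo lie above (11.6% and 12.6% of all genes). The groups overlapped in the other 28. These families are abundant, and abundant genes are called more often: among the 8566 genes with a mean of at least 20 CPM, a level chosen after the data were seen, 8.21% were called lower and 12.7% higher. The hnRNP genes had 11 of 20 called lower with a median log2 fold change of -0.26, and the Snrp genes 6 of 12 with a median of -0.29. Of the Sf3 genes 2 of 9 were called lower with a median of -0.16, although all 9 had a negative difference. Of the Srsf genes tested 1 of 10 was called lower, with a median of -0.12, and 7 had a negative difference.

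**Figure D1:**
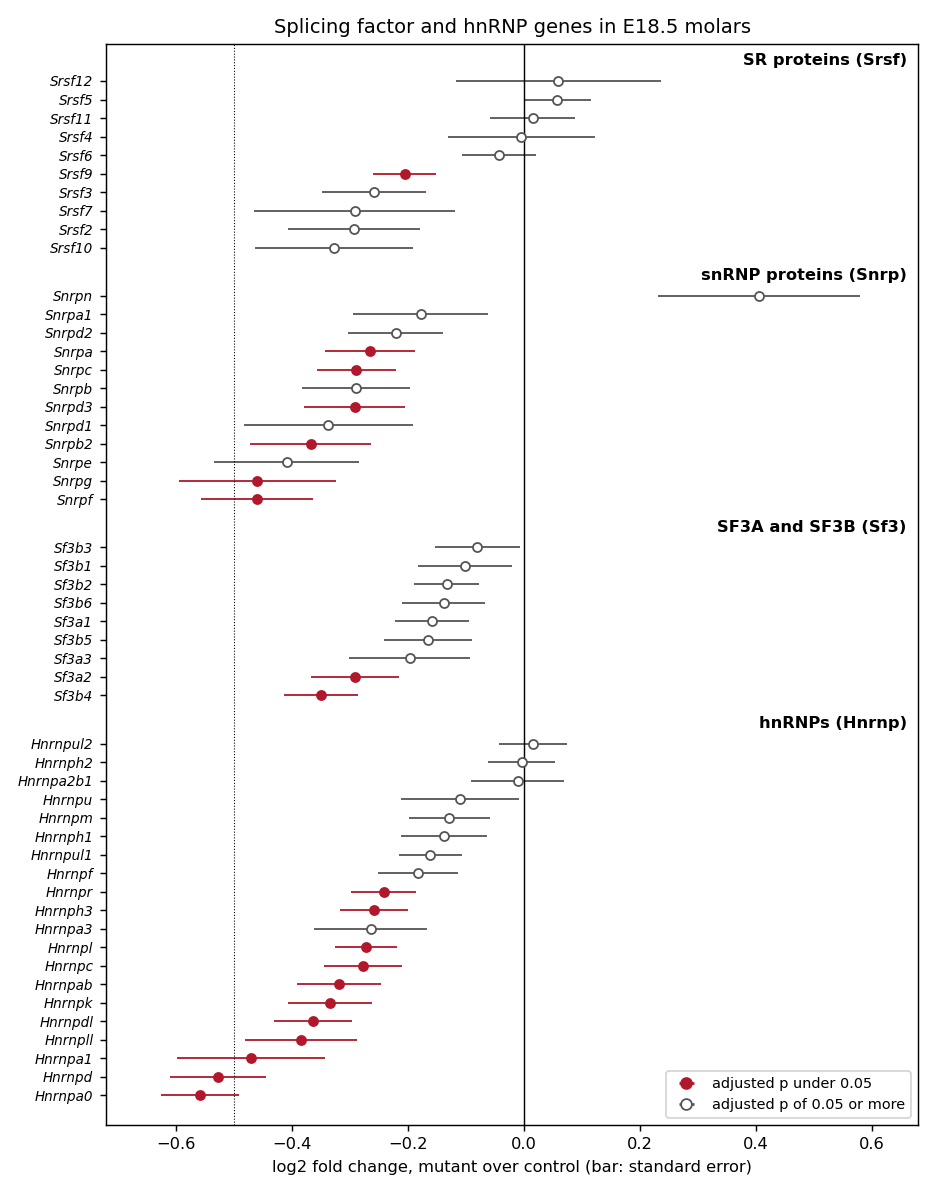
The log2 fold change of Mutant over Control (horizontal axis) of each of the 51 genes tested, by family; points are edgeR estimates, bars their standard errors, and filled points have an adjusted p under 0.05. The dotted line marks a log2 fold change of -0.5. All 20 filled points lie left of 0, and Snrpn, at 0.41, lies apart to the right with an open point.

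The count of calls depended on the fit more than the direction did. It was 12 when libraries were scaled by size alone (6.19% of all genes), where Hnrnpa1, Hnrnpk, Hnrnpc, Hnrnpll, Snrpa, Snrpb2, Snrpd3 and Snrpg were no longer called. With log2 Xist level as a covariate it was 13 (4.28% of all genes), with Srsf10 gained and Hnrnpab, Hnrnph3, Hnrnpr, Snrpa, Snrpc, Snrpg, Sf3a2 and Srsf9 lost. With any 1 embryo left out, between 2 genes (without K14J29, where 1.004% of all genes were) and 29 genes (without K14J28, 10.9%) were called lower, and the number with a negative difference lay between 43 and 47. Of the 20 genes called lower, Hnrnpa0 and Hnrnpd were called in 8 of these 8 fits, Hnrnpdl and Sf3b4 in 7, and the others in 1 to 5. Leaving out a Control embryo gave 5 calls without J3, 4 without J5, 9 without J6 and 5 without J7, where 1.68%, 2.28%, 3.24% and 1.39% of all genes were called lower. Without J6 and J7 together, edgeR called 0 of the 51 and only 4 of all genes lower at an adjusted p under 0.05. The median over the 51 was -0.28 in that fit. At an unadjusted p of at most 0.05, 22 of the 51 were lower there. No number over all genes is given at that unadjusted p, so the 22 have no background here.

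The largest falls were those of Hnrnpa0 and Hnrnpd, whose proteins both bind AU-rich elements in mRNA. Hnrnpa0 (ENSMUSG00000007836) is a single-exon gene on the minus strand of chromosome 13 of GRCm38, from 58125879 to 58128556. It had 367, 369, 344 and 363 CPM in the Control embryos J3, J5, J6 and J7, and 232, 269, 227 and 253 CPM in the Mutant embryos K14J26, K14J28, K14J29 and K14J30. The highest Mutant value stayed well below the lowest Control value. The log2 fold change was -0.56 ± 0.068 (SE), a fall of 32.1%, with an adjusted p of 0.00523 in edgeR's quasi-likelihood test. Hnrnpd (ENSMUSG00000000568, chromosome 5, 99955935 to 99978938, minus strand), also known as AUF1, had 274, 272, 265 and 288 CPM in Control and 172, 215, 173 and 202 CPM in Mutant embryos, in the same embryo order. Again the groups were separate, and the fall was 30.6% (log2 fold change -0.53 ± 0.083, adjusted p = 0.00974). Hnrnpdl, an AUF1-like gene that lies near Hnrnpd on chromosome 5 (100033577 to 100039664), fell from 645, 630, 617 and 568 CPM to 513, 486, 455 and 458 CPM. Its log2 fold change was -0.36 ± 0.066 (adjusted p = 0.0142).

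The promoters of Hnrnpa0 and Hnrnpd are shown because these 2 genes fell most and passed both sets of criteria. Each sequence holds the 250 bases before the RefSeq transcript start (GRCm38.p6), 5′ to 3′ on the strand of the gene, chr13:58128557-58128806 for Hnrnpa0 and chr5:99978939-99979188 for Hnrnpd. Capitals mark matches, on either strand, to 4 of the 8 motifs searched, the GC box GGGCGG, the E box CACGTG, the ETS letters CCGGAAG and the NF-Y element, or CCAAT box. The letters of the other 4, the TATA box TATAAA, the RBPJ core TGGGAA, the YY1 letters AAGATGGCG and the NRF1 element, are in neither window.
Hnrnpa0: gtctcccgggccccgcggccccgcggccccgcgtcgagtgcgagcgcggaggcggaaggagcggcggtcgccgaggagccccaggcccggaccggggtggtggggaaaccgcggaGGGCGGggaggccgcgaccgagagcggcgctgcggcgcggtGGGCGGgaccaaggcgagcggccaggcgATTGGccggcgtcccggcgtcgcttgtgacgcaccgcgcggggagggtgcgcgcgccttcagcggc
Hnrnpd: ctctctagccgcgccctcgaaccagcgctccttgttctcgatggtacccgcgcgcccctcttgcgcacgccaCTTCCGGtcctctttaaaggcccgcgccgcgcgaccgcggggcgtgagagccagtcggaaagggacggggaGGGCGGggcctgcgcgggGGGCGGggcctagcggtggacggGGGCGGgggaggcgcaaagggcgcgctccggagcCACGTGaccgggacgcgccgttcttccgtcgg
In the Hnrnpa0 window the GC box letters start at positions -135 and -94 and a CCAAT box on the opposite strand at -66, counted from the transcript start. In the Hnrnpd window an ETS match on the opposite strand starts at -178, GC boxes at -107, -89 and -66, and an E box at -32.

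A promoter window was found for 45 of the 51 genes. GC box letters stood in 32 of them (71.1%) and CCAAT in 22 (48.9%), against 61.3% and 39.7% of the 12069 tested genes with a window. A gene can have more than 1 window, so shares of single windows are given apart. Of the 62 windows of the 45 genes, 66.1% held GC box letters and 43.5% CCAAT, against 32.7% and 33.8% of all 32851 windows. The ETS letters stood in 15 of the 45 (33.3%), against 1690 of the 12069 tested genes, and in 30.6% of the 62 windows, against 6.91% of all windows. The letters TGGGAA are the core bound by RBPJ, the DNA-binding partner of Notch. They were found in 5 of the 45 (11.1%), those of Sf3b1, Snrpa, Snrpf, Srsf7 and Srsf9, against 23.8% of the tested genes. By window the share was 9.68% of the 62, against 21.6% of all windows. Median GC content was 60.8% in the windows of the 45 genes and 52.4% over all windows, and its part in these shares was not tested. A match describes the letters of the window and does not show a bound site.

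The other abundant hnRNPs differed from one another. On the per-length scale, CPM per kilobase of exon, the highest Control means were those of Hnrnpa1 (318), Hnrnpab (235), Hnrnpa2b1 (211) and Hnrnpk (170). Hnrnpa1, which binds exonic silencers and favours skipping, had 1043, 1014, 940 and 1016 CPM in Control and 531, 810, 733 and 822 CPM in Mutant embryos. K14J26 was far below the other mutants, which were themselves below every Control embryo. The log2 fold change of Hnrnpa1 was -0.47 ± 0.13 (adjusted p = 0.0377), or -0.35 without K14J26. Hnrnpa2b1, its relative in RNA sorting and splicing, had 1473, 1400, 1338 and 1350 CPM in Control and 1223, 1537, 1336 and 1424 CPM in Mutant embryos. There the groups overlapped, with Mutant values both below and above the Control range and a log2 fold change of -0.01 ± 0.081 (adjusted p = 0.939).

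The ratio of Hnrnpa1 to Hnrnpa2b1 counts does not depend on how the libraries are scaled. It was 0.722 ± 0.0226 (SD, n = 4) in Control and 0.522 ± 0.0619 in Mutant embryos, with every Mutant ratio below every Control ratio. The Hnrnpa0 to Hnrnpa2b1 ratio was 0.260 ± 0.00861 against 0.178 ± 0.00836, again without overlap. Set against Hnrnpul2, Hnrnpd had a ratio of 0.935 ± 0.0263 in Control and 0.640 ± 0.0485 in Mutant embryos, also without overlap. The Hnrnpd to Hnrnpdl ratio, 0.448 ± 0.0388 and 0.400 ± 0.0518, overlapped between the groups. These pairs were chosen after the values were seen and carry no test.

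Hnrnpk, which binds C-rich RNA and single-stranded DNA, had 1109, 1089, 1072 and 1117 CPM in Control and 771, 953, 864 and 892 CPM in Mutant embryos (log2 fold change -0.33 ± 0.073, adjusted p = 0.0209). Hnrnpl, which binds CA repeats, went from 523, 542, 528 and 533 CPM to 426, 442, 430 and 464 CPM (-0.27 ± 0.054, adjusted p = 0.0167). The Control values of Hnrnpl lay within 20 CPM of each other, and the Mutant values did not reach them. Hnrnpll, its paralogue known from the splicing of Ptprc in lymphocytes, had 136, 133, 128 and 141 CPM against 84.8, 120, 101 and 106 CPM (-0.38 ± 0.097, adjusted p = 0.0308). Hnrnpc, which binds uridine tracts, had 345, 320, 314 and 331 CPM against 245, 289, 264 and 282 CPM (-0.28 ± 0.068, adjusted p = 0.0285). The other called hnRNP genes were Hnrnpab, Hnrnph3 and Hnrnpr, with log2 fold changes of -0.32, -0.26 and -0.24. Hnrnpab shares 29.1% of its exon bases with Phykpl on the opposite strand.

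No hnRNP gene was called higher, and 9 of the 20 were not called. Hnrnpul1 (-0.16, adjusted p = 0.0689) was the 1 uncalled hnRNP gene whose groups were separate. Hnrnpa3 (-0.26), Hnrnpf (-0.18), Hnrnph1 (-0.14), Hnrnpm (-0.13) and Hnrnpu (-0.11) had adjusted p-values between 0.0902 and 0.470. Hnrnph1, which binds runs of G as Hnrnpf does, had 887, 899, 849 and 888 CPM in Control and 765, 914, 762 and 763 CPM in Mutant embryos, so 3 Mutant embryos lay together below the Control range and K14J28 above it. Hnrnpu, a scaffold attachment factor, had 818, 780, 759 and 834 CPM against 611, 869, 708 and 770 CPM, with the same embryo on top. Without K14J26 the log2 fold change was -0.028 for Hnrnpu and -0.076 for Hnrnpm. Hnrnph2 (-0.00) and Hnrnpul2 (0.02) had the smallest differences beside Hnrnpa2b1.

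**Figure D2:**
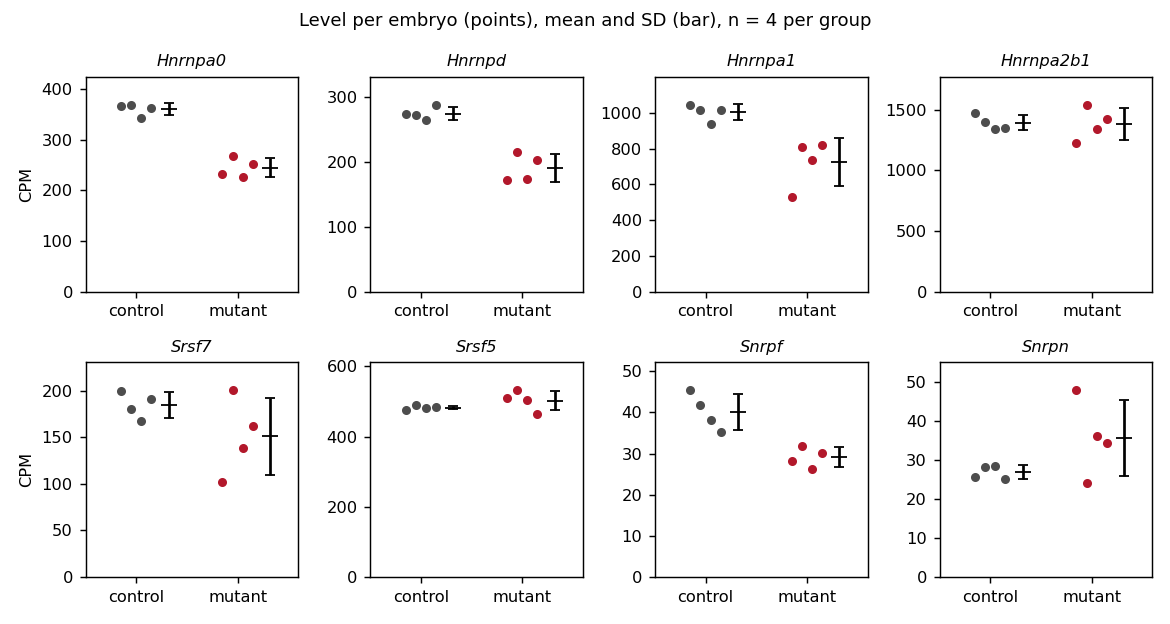
CPM per embryo (points, in the embryo order of the text), with the mean and SD of each group of 4 (bar), for 8 genes. Hnrnpa0, Hnrnpd, Hnrnpa1 and Snrpf have separate groups, while Hnrnpa2b1, Srsf7, Srsf5 and Snrpn overlap.

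The Snrp genes showed the same direction in 11 of 12 members. Among the genes of the Sm ring, Snrpf, Snrpg and Snrpd3 fell. Snrpf (ENSMUSG00000020018, chromosome 10, 93583029 to 93589706) had 45.4, 41.8, 38.1 and 35.2 CPM in Control and 28.2, 31.9, 26.3 and 30.1 CPM in Mutant embryos, without overlap (log2 fold change -0.46 ± 0.096, adjusted p = 0.0187). Of its exon bases, 65.8% also belong to Ccdc38 on the opposite strand, and the library kit does not keep the strand; the group means of Ccdc38 itself were at most 2.56 CPM. Snrpg had 62.2, 54.8, 51.5 and 54.1 CPM against 30.4, 46.8, 37.9 and 46.7 CPM (-0.46 ± 0.14, adjusted p = 0.0479). Snrpd3 was called (-0.29, adjusted p = 0.0493), although its highest Mutant value, 92.8 CPM in K14J28, was just above its lowest Control value, 92.7 CPM in J6.

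The remaining Sm genes were not called. Snrpe (-0.41, adjusted p = 0.0539), Snrpb (-0.29, adjusted p = 0.0614) and Snrpd2 (-0.22, adjusted p = 0.0928) had separate groups without being called. Snrpb, which encodes SmB, had 183, 178, 183 and 174 CPM in Control and 123, 156, 139 and 169 CPM in Mutant embryos. Snrpd1 overlapped between the groups (-0.34, adjusted p = 0.133), with a log2 fold change of -0.21 without K14J26. Of the genes for proteins particular to 1 snRNP, the U1 genes Snrpa (-0.27, adjusted p = 0.0466) and Snrpc (-0.29, adjusted p = 0.0256) fell, as did Snrpb2 of U2 (-0.37, adjusted p = 0.0427). The other U2 gene, Snrpa1, lay at -0.18 (adjusted p = 0.302), or at -0.088 without K14J26. In Snrpa the mean was 107 ± 3.71 CPM (SD, n = 4) in Control and 89.2 ± 9.02 CPM in Mutant embryos.

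Snrpn was the exception in its family. It encodes SmN, which takes the place of SmB in neurons, and it is expressed from the paternal allele. Snrpn (chromosome 7, 59982495 to 60140219, minus strand) had 25.7, 28.2, 28.5 and 25.0 CPM in Control and 47.8, 24.2, 36.1 and 34.3 CPM in Mutant embryos. Thus 3 Mutant embryos lay above the Control range and K14J28 below it, and the log2 fold change of 0.41 ± 0.17 did not pass the adjusted threshold (adjusted p = 0.133). With log2 Xist level as a covariate it was 0.64 (adjusted p = 0.0479), and Snrpn was also called higher without K14J28. Of all genes tested, 1414 of 17129 were called higher with the covariate and 2479 of 16954 without K14J28. Without K14J26 the log2 fold change of Snrpn was only 0.23. Its ratio to Snrpb was 0.150 ± 0.00887 (SD, n = 4) in Control and 0.251 ± 0.101 in Mutant embryos, with K14J28 inside the Control range of this ratio. Of its exon bases, 216 are shared with Snurf and 589 with Gm38393, on the same strand, and reads on these cannot be assigned to 1 gene.

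All 9 genes of SF3A and SF3B had a negative difference, from -0.35 to -0.08. Sf3b4, whose human counterpart is mutated in a craniofacial syndrome, had 35.2, 38.2, 34.9 and 36.5 CPM in Control and 27.1, 29.1, 27.8 and 29.6 CPM in Mutant embryos. The groups were separate and narrow (log2 fold change -0.35 ± 0.063, adjusted p = 0.0136). Sf3a2 fell from 43.4, 44.9, 39.9 and 42.7 CPM to 38.1, 34.2, 31.4 and 36.0 CPM (-0.29 ± 0.076, adjusted p = 0.0338), a call that was lost with Xist as a covariate (-0.20, adjusted p = 0.134). Sf3b1, the largest SF3B subunit, which contacts the branch site, had 584, 620, 641 and 650 CPM against 615, 638, 567 and 505 CPM, with overlapping groups (-0.10 ± 0.081, adjusted p = 0.403). With 1 embryo left out the log2 fold change of Sf3b1 ranged from -0.15 to -0.04. Sf3a1 and Sf3b2, at -0.16 and -0.13, passed an unadjusted p of 0.05 alone.

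Most SR genes were not called. Srsf9, at 76.8, 74.9, 75.1 and 74.9 CPM in Control and 67.9, 62.5, 63.8 and 67.5 CPM in Mutant embryos, was the 1 SR gene called (log2 fold change -0.20 ± 0.054, adjusted p = 0.0355), and not with Xist as a covariate (-0.15, adjusted p = 0.131). Srsf2, which binds exonic enhancers, had 523, 485, 458 and 504 CPM against 322, 477, 377 and 431 CPM (-0.29 ± 0.11, adjusted p = 0.103). In Srsf3, a small SR protein that also serves mRNA export, the values were 495, 458, 440 and 454 CPM against 333, 440, 368 and 404 CPM (-0.26 ± 0.089, adjusted p = 0.0756). Srsf7, close to Srsf3 in function, had 200, 181, 168 and 192 CPM against 102, 201, 139 and 163 CPM (-0.29 ± 0.17, adjusted p = 0.259). With 1 embryo left out the log2 fold change of Srsf7 ranged from -0.46 to -0.14, the latter without K14J26. For Srsf10, a repressor when dephosphorylated, the log2 fold change was -0.33 ± 0.14 and the adjusted p 0.121. In these 4 genes the 3 mutants other than K14J28 lay below the Control range, and K14J28 lay within or above it.

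Srsf5 and Srsf6 did not share that pattern. Srsf5 had 477, 489, 481 and 483 CPM in Control and 510, 531, 504 and 464 CPM in Mutant embryos (log2 fold change 0.06 ± 0.058, adjusted p = 0.509). Srsf6 had 553, 570, 549 and 522 CPM against 562, 557, 512 and 499 CPM (-0.04 ± 0.063, adjusted p = 0.662). Srsf11, at 0.02, and Srsf12, at 0.06 with fewer than 7 CPM in any embryo, were not called, and both signs turned negative when libraries were scaled by size alone, as did that of Srsf5 (-0.04). The ratio of Srsf5 to Srsf3 was 1.05 ± 0.0572 (SD, n = 4) in Control and 1.31 ± 0.172 in Mutant embryos. Every Mutant ratio was above every Control ratio, while the Srsf3 to Srsf7 ratio overlapped. These pairs too were chosen after the values were seen and carry no test. Srsf4 had 112 to 114 CPM in Control and 98.4 to 103 CPM in 3 Mutant embryos, but 149 CPM in K14J26; 43.0% of its exon bases are shared with Gm12992 on the opposite strand.

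Srsf1 could not be measured. It (ENSMUSG00000018379, chromosome 11, 88047373 to 88053755) was listed at 0 in all 8 embryos. It lies in a run of 9 annotated genes, 5 of them protein coding, that were all listed at 0 over 324 kb between Dynll2 and Msi2, which had 30980 and 44352 counts over the 8 embryos. The other coding genes of the run were Vezf1, Cuedc1, Mrps23 and Ccdc182. The reason was not tested, and no level or limit is given for Srsf1.

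The 4 Mutant embryos did not lie equally far from Control. The median log2 difference of the 51 genes from their Control means was -0.34 in K14J26, -0.15 in K14J28, -0.31 in K14J29 and -0.18 in K14J30, while the Control embryos lay between -0.05 and 0.03 and the median of all genes within 0.01 of 0 in every embryo. K14J26 had 42 of the 51 genes below the Control range, K14J28 29, K14J29 46 and K14J30 40, where 38.2%, 29.4%, 33.3% and 29.9% of all genes tested were below it. In 11 genes, Hnrnpa3, Hnrnpf, Hnrnph1, Sf3b3, Sf3b6, Snrpd1, Snrpd3, Srsf2, Srsf3, Srsf7 and Srsf10, the 3 mutants other than K14J28 were below the Control range and K14J28 was not. How many of all genes had this pattern is not given, so the 11 have no background here. K14J26 was the lowest mutant in 31 genes and K14J28 the highest in 31. The median SD of log2 values over the 51 genes was 0.059 in Control and 0.13 in Mutant embryos, and over all genes 0.119 and 0.191.

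**Figure D3:**
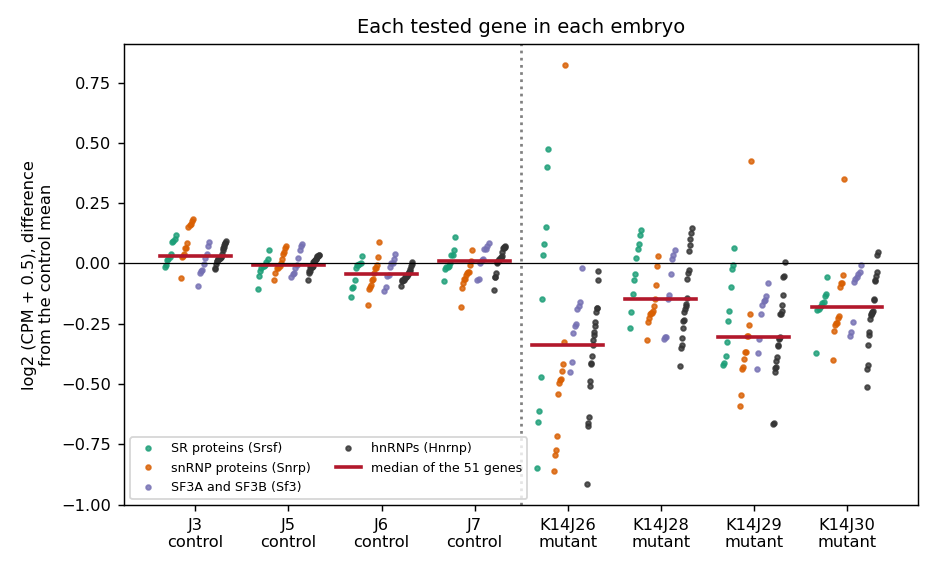
Each point is 1 of the 51 genes in 1 embryo, as the log2 (CPM + 0.5) difference from the gene's Control mean (vertical axis); colours give the family and the horizontal line the median of the 51. The Control medians lie between -0.05 and 0.03 and the Mutant medians between -0.34 and -0.15.

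Some other lists ranked the 4 Mutant embryos in the same order or its reverse. These were the cell cycle genes and the ameloblast, odontoblast, dental epithelium, dental mesenchyme and erythroid markers. The sums of the muscle, immune, endothelium, nerve and bone markers did not keep that order. Over 22 cell cycle genes the median log2 difference from the Control mean was 0.01 in K14J28, -0.27 in K14J30, -0.64 in K14J29 and -1.63 in K14J26, with -0.13 to 0.11 in the Control embryos. None of the 22 was called at an adjusted p under 0.05. All 22 had a negative difference, 7 with an unadjusted p of at most 0.05 (2696 of the 17129 genes tested were lower at that level), and 5 were lower by the criteria of the study (5.85% of all genes). DESeq2 called 4 of the 22 lower, and 1718 of all genes, and 8 were called lower without K14J28, where 10.9% of all genes were. The replication genes Mcm6 and Mcm7 had the smallest p-values of the list, with log2 fold changes of -0.71 (adjusted p = 0.0577) and -0.44 (adjusted p = 0.0920). The summed level of 7 ameloblast markers had the same order, from 3959 CPM in K14J28 through 9976 (K14J30) and 26234 (K14J29) to 114747 CPM (K14J26), and ran from 711 to 3423 CPM in the Control embryos, with 5 of 6 tested markers called higher. The sum of 5 odontoblast markers was 7810 to 24159 CPM in Mutant and 4506 to 8442 CPM in Control embryos, with 4 called higher. The part of proliferation and of these cell types in the splicing factor values was not tested.

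**Figure D4:**
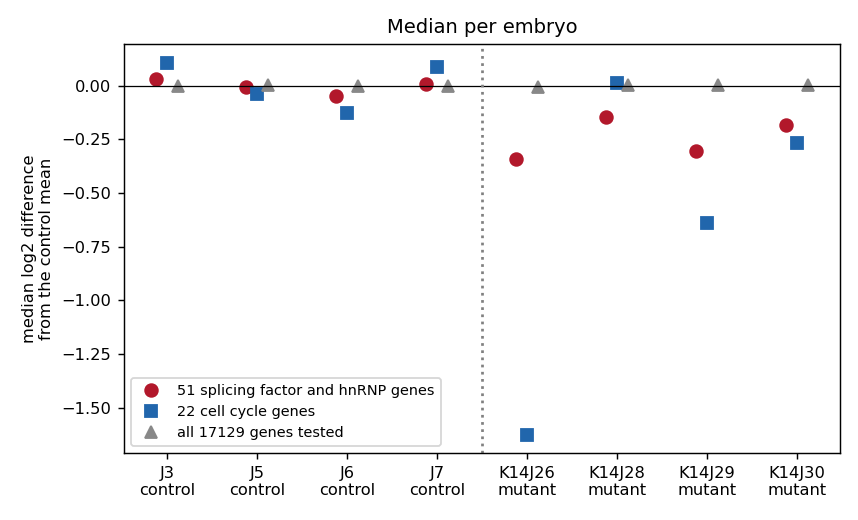
Median log2 difference from the Control mean (vertical axis) in each embryo, for the 51 splicing factor and hnRNP genes, the 22 cell cycle genes and all 17129 genes tested. The cell cycle median spans -1.63 to 0.01 across the mutants, while the median of the 51 genes spans -0.34 to -0.15 and that of all genes stays within 0.01 of 0.

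The other marker lists, beside the muscle markers given above, had these values. Summed levels were 7150 to 10303 CPM in Mutant and 6201 to 7136 CPM in Control embryos for 8 dental epithelium markers, and 6262 to 13891 against 4581 to 6244 CPM for 8 dental mesenchyme markers. Of the mesenchyme markers 5 fell and 1, Col1a2, rose, and the higher Mutant sum is that of Col1a2: the other 7 markers summed to 2523 to 2656 CPM in Mutant and 2759 to 3330 CPM in Control embryos. The 7 endothelium and pericyte markers summed to 378 to 450 against 437 to 484 CPM, and the 7 erythroid markers to 685 to 1673 against 892 to 1333 CPM. For 10 macrophage and immune markers the sums were 86.9 to 207 against 99.7 to 125 CPM, for 7 Schwann cell and nerve markers 223 to 325 against 208 to 243 CPM, and for 6 osteoclast and bone markers 677 to 1913 against 515 to 753 CPM. In these lists Krt14 of the epithelium, Tubb3 of nerve and the bone genes Bglap and Sp7 were called higher, and Tie1 of endothelium was called lower. No list had a marker at 0 in every embryo. The highest immune and bone sums were both in K14J28, and their part in its values was not tested.

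Outside the 4 families, other splicing genes were counted in 7 lists, against 6.61% lower and 9.52% higher over all genes tested. The share called lower was near that background in the lists of U1 and U2 proteins (7.41%), SR-related proteins (7.69%), exon junction genes (6.67%) and Prp19 factors (4.17%), so the counts are no result about those lists, and in no list was the share called higher above 9.52%. Among 27 genes for U1, U2 and minor spliceosome proteins, 2 fell and none rose, with a median log2 fold change of -0.08: Rbm17 (-0.31, adjusted p = 0.0138) and U2af1, the small subunit of the factor that binds the 3′ splice site (-0.27, adjusted p = 0.0376). At an unadjusted p of at most 0.05, 9 were lower and none higher, where 2696 and 3275 of the 17129 genes tested were, and DESeq2 called none higher. Prpf40b and Snrnp35, at 0.19 and 0.16, were not called. Of 25 tri-snRNP and LSm genes tested, 4 fell and 1 rose, with a median of -0.19. The LSm proteins form the ring on U6 RNA that corresponds to the Sm ring, and Lsm4 had 73.3, 67.5, 65.2 and 62.3 CPM in Control and 42.2, 50.9, 47.5 and 54.6 CPM in Mutant embryos (-0.46, adjusted p = 0.0163). Lsm2 (-0.45), Lsm3 (-0.45) and Lsm5 (-0.47) fell as well, while Prpf6, a tri-snRNP bridge protein, rose (0.30, adjusted p = 0.0192). Prpf3, at 0.13, was not called, and Usp39 of this list was listed at 0 in every embryo.

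Assembly of the Sm ring depends on the SMN complex. Of 15 listed genes for this complex and for other factors of Sm-ring assembly, 3 fell and none rose, with a median of -0.12. Smn1 had 38.7, 36.7, 33.5 and 34.4 CPM in Control and 23.9, 29.7, 25.8 and 28.5 CPM in Mutant embryos (-0.41, adjusted p = 0.0194). Clns1a, which chaperones the Sm proteins, and Strap had log2 fold changes of -0.41 and -0.29. No gene of this list had a positive difference at an unadjusted p of at most 0.05, DESeq2 called none higher, and Gemin4 and Tgs1 lay at 0.13 and 0.07. Among 24 Prp19 complex and catalytic factors, Prpf19 fell (-0.29), Tfip11, a disassembly factor, rose (0.22), and the median was -0.05. Prpf18 (-0.17) and Dhx8 (0.19) had separate groups without a call.

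Of 26 genes for SR-related proteins and SR protein kinases, 2 fell and 1 rose, with a median of 0.00. Tra2b (-0.32) and Rnps1 (-0.30) fell, and the kinase gene Prpf4b rose (0.29). Srrm2, a scaffold of nuclear speckles, had 573, 596, 630 and 634 CPM in Control and 858, 687, 662 and 682 CPM in Mutant embryos, separate groups that were not called (0.25, adjusted p = 0.0871). In the 15 exon junction and nonsense-mediated decay genes, Magoh fell (-0.36) and Upf2 rose (0.35), with a median of -0.03, and Rbm8a (-0.30) and Smg9 (0.23) were not called.

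The list of other alternative-splicing regulators had 14 of 56 tested genes lower and 2 higher, with a median of -0.12. Ptbp2, the neuronal relative of the polypyrimidine tract binding protein, had 184, 180, 179 and 184 CPM in Control and 123, 135, 119 and 134 CPM in Mutant embryos (-0.51, adjusted p = 0.00517). Ptbp1 fell by 0.25 on the log2 scale. Cirbp, the cold-inducible RNA binding protein, fell by 0.43. Among the others that fell were Pspc1, Sfpq, Ybx1, Pcbp2, Pcbp4, Qk, Raly, Matr3, Khsrp and Khdrbs1, many of which bind the same transcripts as hnRNPs. Rbm5, which favours exon skipping in apoptosis genes, rose, from 156, 142, 152 and 150 CPM to 224, 238, 225 and 210 CPM (0.58, adjusted p = 0.00485). Rbm20, known for titin splicing, rose from 4.43, 4.25, 5.29 and 4.16 CPM to 6.20, 6.85, 9.46 and 8.15 CPM (0.76, adjusted p = 0.0188).

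The counts add all transcripts of a gene, so a shift between a productive and an unproductive isoform is not visible in them. A transcript annotated as subject to nonsense-mediated decay exists for 23 of the 51 genes (45.1%) and for 26.9% of the 14730 protein-coding genes tested. In the SR family it exists for 8 of 10, in the hnRNPs for 10 of 20, in the Snrp genes for 4 of 12 and in the Sf3 genes for 1 of 9. Of the 20 genes called lower 10 have one. Retained-intron transcripts are annotated for 37 of the 51 genes (72.5%), against 55.5% of the protein-coding genes tested. Sequence shared with other genes, among them processed copies, is a further limit: 78.3% of the 100-base windows of Snrpf transcripts, 49.4% of those of Hnrnpf, 36.3% of those of Srsf4, 32.5% of those of Sf3b4, 25.9% of those of Hnrnpa1 and 25.6% of those of Hnrnpa3 also occur in another annotated gene, while none of the windows of Hnrnpa0 does. How reads with several matches were counted is not given in the sources used here.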

How the data were processed

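Molars were sequenced from poly(A) RNA with an unstranded TruSeq RNA v2 kit, and the authors trimmed the reads, removed 5 bases at the 3′ end and aligned them with STAR to GRCm38 (GRCm38.p3 in the submitters' processing notes). The deposited values are whole-number counts of reads per Ensembl gene, 1 table per embryo, without normalization. The submitters' notes name featureCounts and the study's methods another counter, and the Ensembl release is not given in the sources used here. All 43629 rows name a gene.

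Counts of 8 embryos, grouped by their labels, were fitted over the whole table. A minimum of 10 counts in 2 or more embryos of either group kept 17129 genes, which were scaled by TMM and tested with edgeR 4.0.16 (quasi-likelihood, R 4.3.3, limma 3.58.1, no covariate), with Benjamini-Hochberg adjustment over all of them. Symbols, exons and positions came from GENCODE M21 (42548 identifiers found), and promoters from RefSeq on GRCm38.p6. CPM are on TMM-scaled library sizes, and the text compares levels between genes per kilobase of exon, while the naming rule and the 20 CPM level use CPM. Values are means ± SD where marked, and fold changes carry the standard error of the fit. P-values measure the spread between embryos.

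Genes were named by rule: in each family the 3 smallest p-values in each direction and the 2 highest mean CPM, a set list of well-known members, and in each other list the 2 smallest p-values in each direction. Others are named where a count, an embryo or an overlap turns on them, chosen after their values were seen. The members, lists and alternatives were chosen with earlier results of these data known. Alternatives were RLE, upper-quartile and library size scaling, TMM without the 20 most abundant genes, DESeq2 1.42.0, the robust test, other filters, Xist as a covariate, no fold threshold, and embryos left out. The fitting step was tested on simulated data. It recovered 49% of 1.5-fold and 74% of 2-fold changes at an adjusted p under 0.05, and 5.38% of its calls were unchanged genes. A gene that was not called is therefore not shown to be unchanged.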

Additional observations from a re-analysis of the deposited data

Results flagged for a closer look

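In each group of 4 embryos, a gene was listed when its highest or lowest value stood apart from the rest by a gap, as a share of the group's range, above Dixon's critical value for 4 samples. This held in 6 of 102 groups, where chance gives about 1 in 20. In Control, Sf3b3 was highest in J7 at 300.6 CPM, and Srsf9 was highest in J3 at 76.8 CPM. In Mutant embryos, Srsf4 was highest in K14J26 at 149 CPM, and Hnrnpul1 was highest in K14J30 at 234 CPM. Hnrnph1 and Hnrnph2 were both highest in K14J28, at 914 and 143 CPM.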

How the results depend on the processing

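The number of embryos, 4 per group, limits the precision; depth was not varied. The number of the 51 genes called lower stayed at 20 with RLE scaling, without the 20 most abundant genes and with the robust test, and was 21 with upper-quartile scaling, 24 with DESeq2, 15 without the filter and 21 with a CPM filter, where 8.45%, 10.03%, 3.21% and 8.29% of all genes were called lower. It was 12 with library size only, where the median over the 51 was -0.35 and that of all genes -0.09. It was 13 with Xist as a covariate and 0 without J6 and J7 together. In that last fit 22 of the 51 were lower at an unadjusted p of at most 0.05, with no number over all genes given at that level. With 1 embryo left out the number called lower ranged from 2 to 29. Of the 20 genes, 18 were shared without K14J26 and 16 without K14J30. The number called higher was 1 with Xist as a covariate, where 1414 of all 17129 genes were. It ranged from 0 to 1 with 1 embryo left out, where 250 to 2479 of all genes were.

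By the criteria of the study, the number higher was 1 with Xist as a covariate and 1 with no fold threshold, and ranged from 0 to 1 with 1 embryo left out. The number lower was 4 with upper-quartile scaling, 5 with library size only and 8 with Xist as a covariate. It was 6 without J6 and J7 together and ranged from 1 to 5 with 1 embryo left out. With no fold threshold it was 32, where 2696 of the 17129 genes tested were lower and 3275 higher. For the other fits no share of all genes past these criteria is given, so those counts have no background here.

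Over 918 fits of the 51 genes the sign reversed in 24, in 7 genes, none of them among the 20 called, and 43 genes stayed negative throughout. Log2 fold changes with library size only were -0.042 for Srsf5, -0.061 for Srsf12, -0.089 for Srsf11, -0.080 for Hnrnpul2 and -0.029 for Tgs1. With upper-quartile scaling they were -0.028 for Srsf11 and -0.026 for Hnrnpul2. With Xist as a covariate they were 0.15 for Srsf4, -0.014 for Hnrnpul2 and -0.073 for Gemin4. With 1 embryo left out they ranged from -0.071 to 0.044 for Hnrnpa2b1, -0.17 to 0.056 for Srsf4, -0.045 to 0.014 for Hnrnph2, -0.12 to 0.14 for Srsf12, -0.032 to 0.072 for Srsf11 and -0.020 to 0.043 for Hnrnpul2.

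In the other lists, every count of lower and of higher calls above was 0 without J6 and J7 together. With library size only, the number lower was 1 for tri-snRNP and LSm genes, 1 for SMN genes and 0 for Prp19, SR-related and exon junction genes, and the number higher was 0 for tri-snRNP, Prp19, SR-related and exon junction genes. With Xist as a covariate, the number lower was 1 for U1 and U2 proteins, 1 for tri-snRNP, 7 for other regulators and 0 for Prp19, SR-related and exon junction genes, and the number higher was 1 for other regulators and 0 for tri-snRNP, Prp19 and SR-related genes. DESeq2 gave 4 lower for U1 and U2 proteins, 7 for tri-snRNP, 3 for Prp19, 2 for exon junction and 4 for cell cycle genes, and 2 higher for Prp19. Upper-quartile scaling gave 3 lower for Prp19 and 0 higher for Prp19 and SR-related genes. Without the filter, the number lower was 1 for U1 and U2 proteins and 0 for SR-related and exon junction genes, and the number higher was 0 for Prp19 and SR-related genes. The CPM filter gave 2 lower for Prp19. With 1 embryo left out, the number lower ranged from 0 to 6 for U1 and U2 proteins, 0 to 8 for tri-snRNP, 0 to 3 for Prp19, 0 to 3 for SR-related, 3 to 18 for other regulators, 0 to 4 for SMN, 0 to 1 for exon junction and 0 to 8 for cell cycle genes, and the number higher from 0 to 1 for tri-snRNP, 0 to 2 for Prp19, 0 to 1 for SR-related, 1 to 5 for other regulators and 0 to 1 for exon junction genes. Over all genes, 6.19% were called lower with library size only, 4.28% with Xist, 10.03% with DESeq2 and 8.45% with upper-quartile scaling. Called higher, in the same order, were 855, 1414, 2244 and 1363 of 17129 genes. The share lower was 3.21% without the filter, 8.29% with the CPM filter and 1.004% to 10.9% with 1 embryo left out. The numbers higher were 1470 of 26748 without the filter and 250 to 2479 with 1 embryo left out. The cause of these changes was not tested.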
